A study of Mus musculus with 24 samples.

Results

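Macrophages answer bacterial lipopolysaccharide (LPS) with a programme of inflammatory genes, and dexamethasone, a synthetic glucocorticoid, changes that programme. The quantity described here is how the dexamethasone effect under LPS differed between 24 h and 4 h of treatment. For each protein-coding gene it is the log2 fold change of dexamethasone plus LPS over LPS at 24 h, minus the same fold change at 4 h, and it is called the difference below. The samples were chosen by their labels: 12 of the series' 24 RNA-seq libraries form this contrast, 3 libraries in each of 4 groups. All were macrophages grown from the bone marrow of C57BL/6J wild-type mice aged 8 to 12 weeks, with L929 supernatant as the source of M-CSF. All 4 groups had 100 ng of LPS, for which the labels give no volume. The groups were 100 nM dexamethasone plus LPS for 24 h, LPS alone for 24 h, 100 nM dexamethasone plus LPS for 4 h, and LPS alone for 4 h. The other 12 libraries are the same cells without LPS, with or without dexamethasone, at both times. The labels state neither that the 3 libraries of a group are separate mice or cultures nor that both times belong to 1 experiment. The p-values therefore measure the spread between these libraries, and the times were compared only through the effect formed within each of them.

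Glucocorticoids act through the glucocorticoid receptor, a hormone-activated transcription factor that switches on genes such as Fkbp5 and Tsc22d3 and that lowers the output of NF-kB, AP-1 and interferon regulatory factors. LPS acts through Toll-like receptor 4, which drives an early wave of cytokine and chemokine genes, a type I interferon response and, later, a shift of metabolism towards glycolysis with stabilised Hif1a. The study's stated interest is the time dependence of the anti-inflammatory action, and its title points to metabolism.

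The 12 libraries held 18951567 to 27908164 counts, 97.71 to 98.96% of them on protein-coding genes. Levels are CPM after TMM scaling, that is, counts scaled to the library size multiplied by its TMM factor. A gene was called where edgeR's quasi-likelihood test gave an adjusted p below 0.05 (Benjamini-Hochberg over 14985 genes). Every adjusted p below is from that test unless another tool is named, errors of log2 values are standard errors and those of CPM are SD (n = 3). A log2 value in brackets with no other name is the gene's difference, 24 h minus 4 h. Of the 10 macrophage markers listed, including Csf1r, Adgre1 and Cd68, all were measured. Their summed levels were 42000 to 43100 CPM in dexamethasone plus LPS at 24 h, 48000 to 51900 CPM in LPS at 24 h, 19400 to 20400 CPM in dexamethasone plus LPS at 4 h and 21700 to 23600 CPM in LPS at 4 h. None of 6 erythroid and 3 of 13 lymphocyte markers passed the filter on low counts, and those 3 summed to 3.98 to 8.33 CPM in any library. Of 12 neutrophil markers tested, which summed to 230 to 255, 243 to 278, 258 to 318 and 458 to 478 CPM in the 4 groups as listed, 3 had a positive and 1 a negative difference. Of 10 dendritic cell markers, at 70.4 to 103, 49.4 to 55.6, 229 to 270 and 247 to 285 CPM, 2 had a positive one. The 5 stromal and endothelial markers tested summed to 7.58 to 9.16 CPM with dexamethasone plus LPS at 24 h, against 29.9 to 32.9 CPM with LPS at 24 h, and to 115 to 123 CPM with dexamethasone plus LPS at 4 h, against 140 to 186 CPM with LPS at 4 h. The 5 mast cell markers tested stayed at or under 11.8 CPM, and at or under 0.419 CPM with dexamethasone plus LPS at 24 h. The part of these other cells in the results was not tested, and in bulk RNA fewer cells of a type and less RNA per cell cannot be told apart.

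The dexamethasone effect under LPS was not the same at 24 h and 4 h for a large share of the transcriptome. Of 12224 protein-coding genes tested, 5441 (44.5%) had a called difference, 2639 (21.6%) positive and 2802 (22.9%) negative, and 849 of the positive and 686 of the negative were at least 2-fold. The shares of positive and negative calls are the background for the counts of each gene list below. At 24 h, 5968 genes (48.8%) differed between dexamethasone plus LPS and LPS, 2795 (22.9%) higher and 3173 (26%) lower. At 4 h, 6882 genes (56.3%) did, 3340 (27.3%) higher and 3542 (29%) lower. The typical size of the effect was small at both times, with a median absolute log2 fold change of 0.28 at 24 h and 0.36 at 4 h, and the median absolute difference was 0.39. TMM factors at 4 h were 0.79 to 0.823 with dexamethasone plus LPS, against 0.679 to 0.705 with LPS, and the share of positive calls depends on the scaling. With library size alone the difference shifts by -0.19 for the median gene, to 1791 positive and 4572 negative calls, and the 4 h effect shifts by 0.22, to 5596 higher and 2193 lower.

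Genes called at both times numbered 3973, and 3015 of them (75.9%) moved the same way at 24 h and 4 h. The remaining 958 were called in opposite directions, and all had a called difference, which such a pair of calls makes nearly certain. Of them, 515 were higher with dexamethasone at 24 h and lower with it at 4 h, and 443 were lower at 24 h and higher at 4 h. With library size alone these counts were 300 and 763. A further 580 genes fell at 24 h with no call at 4 h and a negative difference, and 589 rose at 24 h with no call at 4 h and a positive difference. In the other order, 778 genes fell at 4 h with no call at 24 h and a positive difference, and 1000 rose at 4 h with no call at 24 h and a negative difference. Across the 10284 genes with at least 30 counts in each of the 4 groups, the 2 effects had a Pearson correlation of 0.46, given as a description, since genes share their libraries. Among genes lowered at both times in that set, 371 of 1595 were lowered more at 24 h, 393 less, and 831 had no called difference. Among genes raised at both times, 276 of 1175 were raised more at 24 h, 287 less, and 612 had no called difference.

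**Figure D1:**
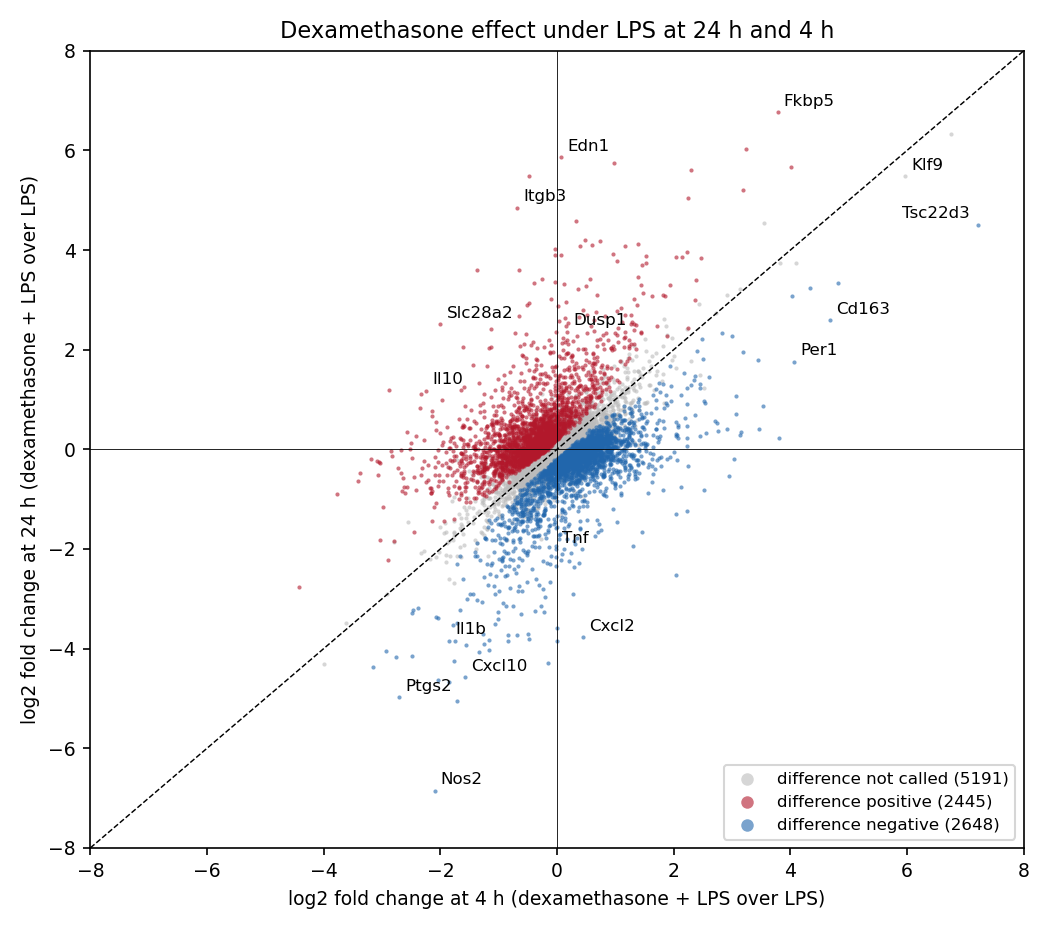
Log2 fold change of dexamethasone plus LPS over LPS at 24 h (vertical axis) against that at 4 h (horizontal axis) for 10284 protein-coding genes with at least 30 counts in each of the 4 groups, and the dashed line marks equal effects. Red points (2445) have a called positive difference, blue points (2648) a called negative one and grey points (5191) none; Edn1 and Dusp1 lie near 0 at 4 h and high at 24 h, while Tnf lies near 0 at 4 h and low at 24 h.

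The inflammatory cytokine genes did not share 1 direction: Tnf and Il1b were lowered more at 24 h, Osm was lowered more at 4 h, and Il10 was lowered at 4 h and raised at 24 h. Of 18 inflammatory cytokine genes tested, 5 had a positive and 6 a negative difference, the median being -0.02, against -0.03 over all protein-coding genes; the list's median is 0.03 with DESeq2's size factors and -0.21 with library size alone. Tnf, the cytokine tumour necrosis factor, had 15.7, 14.5 and 17.7 CPM with dexamethasone plus LPS at 24 h, against 70, 61.2 and 60.8 CPM with LPS at 24 h. At 4 h it had 1970, 1970 and 2040 CPM with dexamethasone plus LPS, against 2050, 2110 and 1890 CPM with LPS. The 24 h groups do not overlap and the 4 h groups do, so that Tnf stood at 24.8% of its LPS level at 24 h and at 98.5% at 4 h, a difference of -1.99 ± 0.10 (adjusted p = 1.9e-17). With library size alone the 4 h effect on Tnf is 0.20 and is called as a rise (adjusted p = 0.0049). Il1b, interleukin 1 beta, fell at both times and further at 24 h: it had 249, 200 and 219 CPM with dexamethasone plus LPS at 24 h, against 3390, 3150 and 3040 CPM with LPS. At 4 h it had 1840, 1840 and 1780 CPM, against 7110, 6240 and 6310 CPM with LPS, and the difference was -1.99 ± 0.12 (adjusted p = 8.8e-13).

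Il10, the anti-inflammatory interleukin 10, went the other way. At 24 h it was low in all libraries, with 1.2, 1.55 and 2.6 CPM with dexamethasone plus LPS, against 1.06, 0.833 and 0.447 CPM with LPS. At 4 h it had 69.5, 70.5 and 90.2 CPM with dexamethasone plus LPS, against 364, 383 and 341 CPM with LPS. The groups do not overlap at either time, and Il10 stood at 229% of its LPS level at 24 h and 21.1% at 4 h, a difference of 3.42 ± 0.37 (adjusted p = 3.3e-08). The 24 h rise of Il10 rests on single libraries: its adjusted p is 0.077 without replicate 3 of dexamethasone plus LPS at 24 h and 0.051 without replicate 3 of LPS at 24 h, and limma-voom gives 0.053. Il6, another cytokine of the early response, had 6.13, 6.0 and 7.48 CPM with dexamethasone plus LPS at 24 h, against 2.2, 1.72 and 2.78 CPM with LPS. At 4 h, Il6 had 458, 415 and 520 CPM with dexamethasone plus LPS, against 519, 562 and 536 CPM with LPS. It rose at 24 h and was -0.21 ± 0.08 on the log2 scale at 4 h. The call of that small fall is lost without replicate 2 of LPS at 4 h (adjusted p = 0.097) or replicate 1 or 2 of dexamethasone plus LPS at 4 h (0.07 and 0.15), and with library size alone (0.96). The difference of Il6 was 1.76 ± 0.20 (adjusted p = 8e-08). Osm, oncostatin M, fell to 1.22 ± 0.441 CPM at 4 h, against 12.6 ± 0.64 CPM with LPS, and its difference was 2.90 ± 0.29. Csf3, the neutrophil growth factor G-CSF, had a difference of -2.50 ± 0.38, with a rise called at 4 h alone: it averaged 0.868 ± 0.408 CPM against 0.654 ± 0.0961 CPM with LPS at 24 h, and 106 ± 10.1 CPM against 14.2 ± 1.35 CPM with LPS at 4 h. For Il12b, a subunit of interleukin 12, no difference was detected (-0.80 ± 0.69, adjusted p = 0.4), at 0.0866 ± 0.0296 CPM against 0.741 ± 0.31 CPM with LPS at 24 h.

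**Figure D2:**
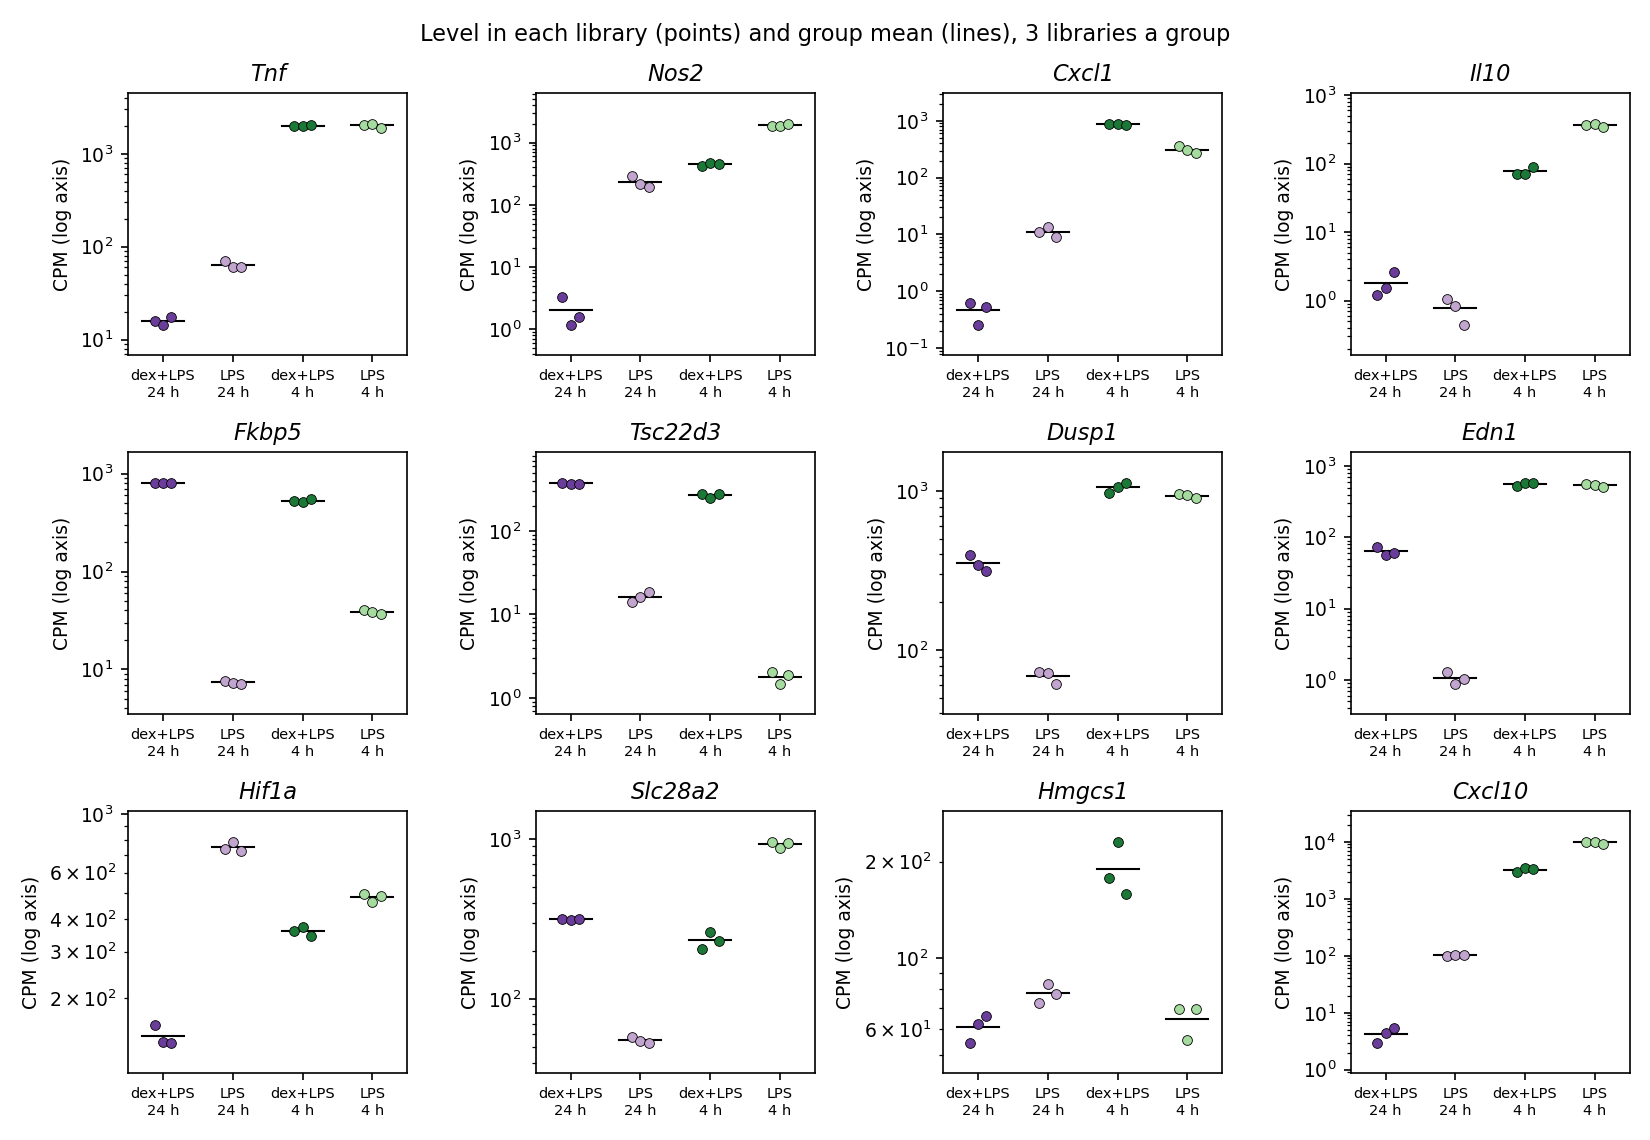
Level of 12 genes in each library, in CPM on a log axis, with a line at the group mean; groups run from dexamethasone plus LPS to LPS at 24 h and then at 4 h. Tnf and Edn1 differ with dexamethasone at 24 h by far more than at 4 h, and Cxcl1, Il10 and Slc28a2 are shifted in opposite directions at the 2 times.

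Chemokines, which attract leukocytes, were more often lowered further at 24 h. Of 19 tested, 11 had a negative and 4 a positive difference, where 22.9% and 21.6% of all protein-coding genes did, with a list median of -1.85, and at 24 h the median effect was -3.54, against -1.29 at 4 h. Cxcl1, a neutrophil attractant, had 0.628, 0.259 and 0.519 CPM with dexamethasone plus LPS at 24 h, against 11.1, 13.3 and 8.98 CPM with LPS. At 4 h it had 892, 873 and 844 CPM with dexamethasone plus LPS, against 356, 306 and 272 CPM with LPS. The 24 h value with dexamethasone rests on 27 counts. All 3 libraries with dexamethasone were below the LPS libraries at 24 h and above them at 4 h, and the difference was -6.03 ± 0.29 (adjusted p = 1.7e-13). Cxcl2, a close relative, had the same pattern, with 9.56 ± 1.82 CPM against 131 ± 23.9 CPM with LPS at 24 h, 1320 ± 32.3 CPM against 973 ± 50.9 CPM with LPS at 4 h, and a difference of -4.22 ± 0.19. Cxcl3 had 2 counts in all with dexamethasone plus LPS at 24 h, against 2138 with LPS, and 8961 at 4 h, against 13091 with LPS; no fold change is given for so few counts. Cxcl10, an attractant of T cells induced by interferon, had 2.99, 4.45 and 5.4 CPM with dexamethasone plus LPS at 24 h, against 98.5, 105 and 104 CPM with LPS. At 4 h, Cxcl10 had 2980, 3430 and 3390 CPM with dexamethasone plus LPS, against 10100, 10100 and 9140 CPM with LPS. It fell at both times, to 4.2% of its LPS level at 24 h and 33.4% at 4 h (difference -3.00 ± 0.21). Ccl2, a monocyte attractant, stood at 2.99% of its LPS level at 24 h and 30.1% at 4 h (-3.33 ± 0.50). Ccl5, also a T cell attractant, fell by less, with effects of -1.01 ± 0.08 at 24 h and -0.50 ± 0.08 at 4 h (-0.51 ± 0.12). Ccl3, another leukocyte attractant, was the reverse of these, lowered at 4 h, to 2450 ± 104 CPM against 6510 ± 381 CPM with LPS, and at 108 ± 14.5 CPM against 89.9 ± 4.88 CPM with LPS at 24 h (1.68 ± 0.10); its small rise at 24 h is not called without replicate 1 of dexamethasone plus LPS (adjusted p = 0.071).

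The upstream sequence of Cxcl1 is shown because its effect changed direction between the times and because a site of the NF-kB type lies close to the gene's start. The 250 bases before the start are at chr5:90890995-90891244 on the + strand of RefSeq's GRCm38.p6, and capitals mark the match.
Cxcl1: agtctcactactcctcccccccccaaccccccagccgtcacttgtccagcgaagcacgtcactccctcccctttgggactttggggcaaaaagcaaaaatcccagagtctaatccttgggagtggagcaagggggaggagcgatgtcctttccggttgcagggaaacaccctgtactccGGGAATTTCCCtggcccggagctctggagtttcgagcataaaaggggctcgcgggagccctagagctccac
The letters searched were GGGA and TTCC with any 2 bases between them, on both strands, in windows reaching from 250 bases before to 50 bases after each gene's start; the 2 overlapping matches begin 71 and 70 bases before the start. Such a match is in 4 of 13 windows of chemokine genes (30.8%), 3 of 16 of cytokine genes (18.8%) and 482 of all 32851 windows (1.47%). For every motif here, list windows are only of genes that passed the filter on low counts, whereas all windows include genes that did not. The 2 sets are thus unlike, and their shares are given as a description. A match describes letters and not a bound site.

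Nos2 and Ptgs2, enzymes that make inflammatory mediators, were lowered at both times and more at 24 h. Nos2, which makes nitric oxide in activated macrophages, had 3.35, 1.19 and 1.56 CPM with dexamethasone plus LPS at 24 h, against 293, 218 and 193 CPM with LPS. At 4 h, Nos2 had 423, 462 and 453 CPM with dexamethasone plus LPS, against 1870, 1840 and 2010 CPM with LPS. Its groups are separate at both times, at 0.864% of the LPS level at 24 h and 23.4% at 4 h, and its difference of -4.76 ± 0.31 (adjusted p = 2.1e-07) was the most negative among genes with at least 30 counts in each of the 4 groups and a mean of at least 5 CPM. Ptgs2, the cyclooxygenase of inflammation, stood at 3.16% at 24 h and 15.2% at 4 h (-2.27 ± 0.22), whereas Ptges, a prostaglandin E synthase, averaged 205 ± 32.6 CPM against 703 ± 37.8 CPM with LPS at 24 h. At 4 h, Ptges averaged 1120 ± 85 CPM against 883 ± 36.8 CPM with LPS (difference -2.12 ± 0.13). Acod1, which makes itaconate, had no called effect at 4 h (-0.25 ± 0.16) and fell at 24 h (-2.24 ± 0.17), with a difference of -1.99 ± 0.23; its 4 h fall is called by limma-voom (adjusted p = 4.3e-05) and in a fit of the 12 LPS libraries alone (0.00046). Among the 14 prostaglandin and leukotriene genes tested, 7 had a positive difference, including Ptgs1, the constitutive cyclooxygenase (2.01 ± 0.25), and Ptger4, a prostaglandin E2 receptor (1.94 ± 0.16), and 4 a negative one. Of 12 genes of nitric oxide and arginine metabolism, 4 were positive and 6 negative.

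The interferon-stimulated genes were lowered by dexamethasone at both times, and for most of them by more at 24 h. All 33 tested were lower with dexamethasone at 24 h and all 33 at 4 h, where 26% and 29% of all protein-coding genes were. A negative difference was called for 29, a positive one for 1 and none for 3, where 22.9% of all protein-coding genes were negative and 21.6% positive. The median effect was -1.45 at 24 h and -0.80 at 4 h (median difference -0.84). With library size alone 30 are negative and none positive. Irf7, a transcription factor that amplifies interferon production, had 301, 316 and 311 CPM with dexamethasone plus LPS at 24 h, against 1100, 1110 and 1090 CPM with LPS. At 4 h, Irf7 had 698, 762 and 894 CPM with dexamethasone plus LPS, against 1400, 1490 and 1440 CPM with LPS. The groups do not overlap at either time, and the difference was -0.95 ± 0.15 (adjusted p = 4.2e-05). Ifi44 had the most negative difference of the genes named from this list, -2.42 ± 0.31, at 9.41 ± 1.18 CPM against 122 ± 9.91 CPM with LPS at 24 h and 65 ± 15.9 CPM against 157 ± 27.4 CPM with LPS at 4 h. Ifit2, an antiviral effector that binds RNA, stood at 8.91% of its LPS level at 24 h and 30.3% at 4 h (-1.76 ± 0.29). The 1 positive gene was Ifih1, a cytosolic sensor of double-stranded RNA (0.32 ± 0.11), and its call is lost with library size alone (adjusted p = 0.3), without replicate 1 of dexamethasone plus LPS at 4 h (0.058) and without replicate 3 of it at 24 h (0.058).

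Ifit1, a second antiviral effector, is shown with its upstream sequence as an example of the interferon-stimulated list, picked after its values were seen. It averaged 57.1 ± 8.11 CPM with dexamethasone plus LPS at 24 h, against 337 ± 9.97 CPM with LPS, and 1880 ± 182 CPM at 4 h, against 4510 ± 223 CPM with LPS, a difference of -1.30 ± 0.23. The 250 bases before its start are at chr19:34640639-34640888 on the + strand of RefSeq's GRCm38.p6, and capitals mark 2 matches to an interferon response element, read on the other strand.
Ifit1: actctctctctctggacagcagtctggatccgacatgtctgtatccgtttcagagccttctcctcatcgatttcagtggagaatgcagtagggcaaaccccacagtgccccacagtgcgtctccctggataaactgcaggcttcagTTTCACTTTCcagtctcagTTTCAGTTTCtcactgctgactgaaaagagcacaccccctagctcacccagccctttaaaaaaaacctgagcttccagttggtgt
The letters searched were GAAA, any 2 bases and GAAA on both strands. They are in 17 of 33 windows of the listed genes (51.5%) and in 1131 of all 32851 windows (3.44%).

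The classical glucocorticoid targets did not share 1 time course under LPS. Of 22 tested, 12 had a positive and 6 a negative difference (21.6% and 22.9% over all protein-coding genes). The median was 1.07, and the median effect was 1.80 at 24 h and 0.81 at 4 h. Not all were raised by dexamethasone: 17 were higher and 5 lower at 24 h, and 13 were higher and 8 lower at 4 h. A positive difference can therefore also come from a smaller fall at 24 h. Fkbp5, a co-chaperone that dampens the glucocorticoid receptor, had 811, 797 and 795 CPM with dexamethasone plus LPS at 24 h, against 7.62, 7.29 and 7.15 CPM with LPS. At 4 h, Fkbp5 had 532, 514 and 547 CPM with dexamethasone plus LPS, against 40.2, 38.4 and 36.9 CPM with LPS. Its difference was 2.98 ± 0.10 (adjusted p = 1.2e-22), with effects of 6.77 ± 0.08 at 24 h and 3.78 ± 0.07 at 4 h. Tsc22d3, which encodes the anti-inflammatory protein GILZ, had 380, 370 and 368 CPM with dexamethasone plus LPS at 24 h, against 14.1, 16.1 and 18.8 CPM with LPS. At 4 h, Tsc22d3 had 275, 251 and 280 CPM with dexamethasone plus LPS, against 2.04, 1.48 and 1.88 CPM with LPS. Here the effect was smaller at 24 h (4.51 ± 0.07) than at 4 h (7.21 ± 0.10), a difference of -2.70 ± 0.14 (adjusted p = 1.7e-17). Both genes rose in every library with dexamethasone at both times, yet their differences had opposite signs.

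Per1, a clock gene with a glucocorticoid response element, had 120, 114 and 125 CPM with dexamethasone plus LPS at 24 h, against 37, 31.5 and 37.6 CPM with LPS. At 4 h, Per1 had 117, 114 and 115 CPM with dexamethasone plus LPS, against 5.96, 7.31 and 7.56 CPM with LPS (-2.31 ± 0.11). Klf9, a transcription factor, had effects of 5.49 ± 0.12 at 24 h and 5.97 ± 0.12 at 4 h, and its difference of -0.48 ± 0.23 was not called (adjusted p = 0.096); it is called without replicate 1 of LPS at 4 h (-0.765, adjusted p = 0.015) or replicate 2 of LPS at 24 h (-0.615, 0.045), with library size alone (-0.672, 0.02) and with no filter on low counts (0.042). Dusp1, a phosphatase that switches off p38 and JNK kinases, had 399, 343 and 314 CPM with dexamethasone plus LPS at 24 h, against 72.7, 71.5 and 61.6 CPM with LPS. At 4 h, Dusp1 had 978, 1060 and 1130 CPM with dexamethasone plus LPS, against 964, 943 and 907 CPM with LPS. It stood at 513% of its LPS level at 24 h and 112% at 4 h (2.19 ± 0.10, adjusted p = 4.8e-19). The small 4 h rise of Dusp1 loses its call without any 1 of 4 libraries (adjusted p = 0.055 to 0.16). It is also lost in edgeR with DESeq2's size factors (0.069) and in DESeq2 (0.089). Ddit4, an inhibitor of mTORC1 signalling, averaged 195 ± 11.2 CPM against 11.4 ± 1.13 CPM with LPS at 24 h. At 4 h, Ddit4 averaged 13.1 ± 0.922 CPM against 10.1 ± 1.15 CPM with LPS (difference 3.70 ± 0.13). Rgs2, a regulator of G protein signalling, rose at 24 h, to 56.3 ± 3.99 CPM against 24.7 ± 2.72 CPM with LPS, and fell at 4 h, to 2.63 ± 0.119 CPM against 19.3 ± 3.38 CPM with LPS (4.07 ± 0.17). Cd163, the haemoglobin scavenger receptor, averaged 167 ± 0.321 CPM against 27.8 ± 2.87 CPM with LPS at 24 h and 36.4 ± 4.86 CPM against 1.45 ± 0.426 CPM with LPS at 4 h (-2.07 ± 0.19), and Mertk, a receptor for apoptotic cells, rose more at 24 h (0.60 ± 0.14).

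The receptor itself, Nr3c1, changed little. It averaged 175 ± 11.1 CPM with dexamethasone plus LPS at 24 h, against 162 ± 4.93 CPM with LPS, and 337 ± 22.5 CPM at 4 h, against 427 ± 8.56 CPM with LPS, with a called fall at 4 h and a difference of 0.46 ± 0.08. Of 15 genes of the receptor's complex, 4 had a positive and 5 a negative difference, where 21.6% and 22.9% of all protein-coding genes did. Whether the list departs from these shares was not tested. Among the called genes were the coactivators Ncoa1 (1.08 ± 0.12) and Ncoa2 (-0.73 ± 0.13) and the co-chaperone Ptges3 (-0.54 ± 0.07). The palindromic glucocorticoid response element, GNACA and TGTNC with any 3 bases between, is in 2 of 31 windows of the listed targets (6.45%) and in 156 of all 32851 (0.475%), and no such window is shown.

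Of 14 MAP kinase phosphatases and mRNA decay factors, 8 had a positive and 2 a negative difference (median 0.37), against 6 and 3 with library size alone. Zfp36, tristetraprolin, which promotes decay of cytokine mRNAs, stood at 80.7% of its LPS level at 24 h and 33.7% at 4 h (1.26 ± 0.12). Dusp2, another MAP kinase phosphatase, averaged 13.7 ± 2.01 CPM against 2.76 ± 0.275 CPM with LPS at 24 h and 489 ± 7.4 CPM against 708 ± 34.9 CPM with LPS at 4 h (2.85 ± 0.18), while Dusp4 had an effect of -2.66 ± 0.18 at 24 h and a difference of -2.54 ± 0.23. Among 19 NF-kB subunits and feedback genes, 8 were positive and 5 negative (21.6% and 22.9% over all protein-coding genes). With library size alone 6 were positive and 8 negative and the median was -0.10, against 0.09 with TMM scaling. Tnfaip3, the A20 enzyme that ends NF-kB signalling, had 360, 338 and 334 CPM with dexamethasone plus LPS at 24 h, against 136, 136 and 135 CPM with LPS. At 4 h, Tnfaip3 had 2520, 2840 and 2680 CPM with dexamethasone plus LPS, against 3410, 3410 and 3120 CPM with LPS. It was thus higher with dexamethasone in every library at 24 h and lower in every library at 4 h (1.65 ± 0.12, adjusted p = 1.2e-10), though its 4 h fall is not called with library size alone (adjusted p = 0.41). Nfkbia, the inhibitor IkB alpha, had a difference of 0.78 ± 0.07, and Nfkbie, a related inhibitor, one of -0.97 ± 0.11. Of 20 genes of the Toll-like receptor 4 pathway, 4 were positive, including the adaptor Ticam1 (0.94 ± 0.10), and 8 negative, including Irak3, an inhibitory kinase-like protein (-1.0 ± 0.09); with library size alone these counts were 2 and 13.

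The hypoxia response had 14 of 16 genes with a negative and 1 with a positive difference (22.9% and 21.6% over all protein-coding genes). Its median difference was -1.18, and its median effect was -1.36 at 24 h and -0.07 at 4 h (0.15 at 4 h with library size alone). Hif1a, the oxygen-regulated transcription factor that also drives glycolysis in LPS-treated macrophages, had 157, 136 and 135 CPM with dexamethasone plus LPS at 24 h, against 740, 787 and 728 CPM with LPS. At 4 h it had 358, 373 and 343 CPM with dexamethasone plus LPS, against 498, 462 and 490 CPM with LPS. The groups do not overlap at either time, and Hif1a stood at 19% of its LPS level at 24 h and 74.1% at 4 h, a difference of -1.96 ± 0.08 (adjusted p = 6e-20). On the list, 12 genes were lower and 1 higher with dexamethasone at 24 h (26% and 22.9% over all protein-coding genes). At 4 h 5 were lower and 2 higher (29% and 27.3%). Known targets of hypoxia-inducible factors also had negative differences, among them Vegfa, a growth factor for vessels (-2.73 ± 0.19), Egln3, a prolyl hydroxylase (-2.68 ± 0.49), and Bnip3, a mitophagy receptor (-2.18 ± 0.13). Ankrd37, also induced in hypoxia, averaged 0.867 ± 0.219 CPM against 10.5 ± 0.862 CPM with LPS at 24 h. At 4 h, Ankrd37 averaged 1.66 ± 0.251 CPM against 1.67 ± 0.366 CPM with LPS (difference -3.59 ± 0.39). The exception was Ndrg1, a stress-induced gene (0.99 ± 0.13), lowered at 4 h.

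Of 22 glycolysis genes, 16 had a negative and 4 a positive difference (22.9% and 21.6% over all protein-coding genes), at a median of -0.78. Ldha, lactate dehydrogenase A, had 831, 741 and 722 CPM with dexamethasone plus LPS at 24 h, against 1880, 1980 and 1880 CPM with LPS. At 4 h, Ldha had 1190, 1060 and 1160 CPM with dexamethasone plus LPS, against 1340, 1330 and 1350 CPM with LPS. It stood at 39.8% of its LPS level at 24 h and 85.1% at 4 h (-1.09 ± 0.08, adjusted p = 6.4e-14). The lactate exporter Slc16a3 had the most negative difference of the list (-2.08 ± 0.14), and Slc2a1, the glucose transporter GLUT1, stood at 28.8% at 24 h and 54.4% at 4 h (-0.92 ± 0.09). Gapdh (-0.87 ± 0.07), Pgk1 (-1.09 ± 0.08), Tpi1 (-1.10 ± 0.08) and Pkm (-0.86 ± 0.08), enzymes of the lower part of the pathway, had differences close to each other. Hk2, hexokinase 2, stood at 47.6% of its LPS level at 24 h and 46.9% at 4 h, so that no difference was detected (0.02 ± 0.10, adjusted p = 0.9), and Pfkp, a phosphofructokinase, was lowered more at 4 h (1.15 ± 0.09). Slc2a3, the glucose transporter GLUT3, rose at 24 h, to 16 ± 1.56 CPM against 3.81 ± 0.503 CPM with LPS, and fell at 4 h, to 7.17 ± 2.15 CPM against 11.2 ± 0.516 CPM with LPS (2.70 ± 0.20).

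The upstream sequence of Ldha, as an example of the genes lowered more at 24 h, is at chr7:46845554-46845803 on the + strand of RefSeq's GRCm38.p6. Capitals mark matches to ACGTG, the core of the hypoxia response element, on either strand.
Ldha: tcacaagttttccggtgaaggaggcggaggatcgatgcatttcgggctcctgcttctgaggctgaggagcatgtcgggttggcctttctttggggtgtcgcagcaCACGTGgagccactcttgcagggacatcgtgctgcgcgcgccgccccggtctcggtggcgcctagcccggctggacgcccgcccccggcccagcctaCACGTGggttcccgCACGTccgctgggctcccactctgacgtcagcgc
The same letters lie within CACGTG, an E-box that clock and Myc-family factors read, and 2 of the 3 marked stretches hold that E-box. A match is in 12 of 19 windows of hypoxia genes (63.2%), 17 of 33 of glycolysis genes (51.5%), 11 of 20 of clock genes (55%) and 6447 of all 32851 windows (19.6%). As above, the listed genes passed the filter on low counts, and all windows include genes that did not.

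Genes of the antioxidant response governed by Nrf2 also had a one-sided difference: 15 of 18 were negative and none positive (22.9% and 21.6% over all protein-coding genes). The median difference was -0.94, with a median effect of -0.84 at 24 h and -0.07 at 4 h (0.15 at 4 h with library size alone). Hmox1, haem oxygenase 1, had 467, 494 and 467 CPM with dexamethasone plus LPS at 24 h, against 1840, 1570 and 1350 CPM with LPS. At 4 h, Hmox1 had 498, 525 and 515 CPM with dexamethasone plus LPS, against 328, 287 and 366 CPM with LPS. Every library with dexamethasone was below the LPS libraries at 24 h and above them at 4 h (-2.39 ± 0.12, adjusted p = 8.3e-15). Slc7a11, the cystine transporter, was likewise lowered at 24 h (-0.88 ± 0.18) and raised at 4 h (1.56 ± 0.16), a difference of -2.45 ± 0.24. Nqo1, a quinone reductase, had a difference of -2.15 ± 0.42, and Gclc, the catalytic subunit of the enzyme that starts glutathione synthesis, one of -1.81 ± 0.12. Its partner Gclm averaged 34.6 ± 3.0 CPM against 129 ± 27 CPM with LPS at 24 h. At 4 h, Gclm averaged 70.1 ± 6.89 CPM against 57 ± 7.62 CPM with LPS (difference -2.20 ± 0.20). The Nrf2 gene itself, Nfe2l2, had a difference of -0.93 ± 0.07, while for Keap1, its inhibitor, none was detected (0.02 ± 0.09, adjusted p = 0.91).

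The upstream sequence of Gclm, picked after its values were seen, is at chr3:122245307-122245556 on the + strand of RefSeq's GRCm38.p6, with capitals on a match to the core of the antioxidant response element, read on the other strand.
Gclm: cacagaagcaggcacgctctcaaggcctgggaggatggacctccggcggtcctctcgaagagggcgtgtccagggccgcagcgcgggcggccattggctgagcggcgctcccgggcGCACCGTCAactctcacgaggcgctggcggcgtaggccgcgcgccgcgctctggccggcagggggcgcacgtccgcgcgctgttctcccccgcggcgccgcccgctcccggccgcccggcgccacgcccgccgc
The letters searched were TGAC and GC with any 3 bases between them, on both strands, which are in 7 of 19 windows of Nrf2 genes (36.8%) and in 4071 of all 32851 windows (12.4%).

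Of 65 nuclear genes of the respiratory chain, 47 had a positive and none a negative difference, where 21.6% and 22.9% of all protein-coding genes did, at a median of 0.43; 49 were higher and none lower with dexamethasone at 24 h, and 6 were higher and 20 lower at 4 h. With library size alone 34 are positive and 1 negative, the list's median is 0.24, and its 4 h median turns to 0.13, against -0.09 with TMM scaling. The 4 h calls of the list also turn, to 29 higher and 1 lower, where that scaling calls 5596 higher and 2193 lower of all 12224 protein-coding genes. Ndufa12, a subunit of complex I, averaged 45.1 ± 1.87 CPM against 25.9 ± 2.34 CPM with LPS at 24 h and 29.8 ± 1.5 CPM against 35.7 ± 5.0 CPM with LPS at 4 h (1.06 ± 0.12), and Cyc1, cytochrome c1 of complex III, had a difference of 0.85 ± 0.09. The 4 h fall of Ndufa12 loses its call with library size alone (adjusted p = 0.71) and without replicate 2 of LPS at 4 h (0.16). Of 35 genes of pyruvate oxidation, the citrate cycle and its side reactions, 22 were positive and 7 negative (median 0.38; 15 and 9 with library size alone). Mdh1, the cytosolic malate dehydrogenase, had 267, 259 and 239 CPM with dexamethasone plus LPS at 24 h, against 116, 124 and 131 CPM with LPS. At 4 h, Mdh1 had 125, 131 and 116 CPM with dexamethasone plus LPS, against 123, 119 and 119 CPM with LPS. Dexamethasone raised it in every library at 24 h, the groups overlap at 4 h, and the difference was 1.00 ± 0.09 (adjusted p = 6.7e-12). With library size alone the 4 h effect on Mdh1 is 0.26 and is called as a rise (adjusted p = 0.00047). Of the cycle's enzymes, Idh2 (1.00 ± 0.11), Idh3a (0.88 ± 0.10) and Sdha (0.80 ± 0.07) were positive. The negative members were not cycle enzymes of the mitochondria: beside Acod1 they were Pdk1 (-1.39 ± 0.11) and Pdk3 (-0.41 ± 0.14), kinases that inhibit pyruvate dehydrogenase, Pcx, pyruvate carboxylase (-1.49 ± 0.23), Me1, malic enzyme (-1.83 ± 0.22), Idh1, the cytosolic isocitrate dehydrogenase (-1.08 ± 0.11), and Slc25a1, the citrate carrier (-0.38 ± 0.10).

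Of 19 genes of fatty acid oxidation, 12 were positive and 1 negative (median 0.31; 7 and 3 with library size alone), with Acaa2, a mitochondrial thiolase, at 1.53 ± 0.12 and Ppargc1b, a coactivator of mitochondrial genes, at 2.05 ± 0.24. Of the 13 genes encoded in mitochondrial DNA, 10 were higher with dexamethasone at 24 h and none was called at 4 h, where library size alone calls 7 higher. The genes mt-Nd1 (0.46 ± 0.10) and mt-Co1 (0.24 ± 0.09) had a called difference, and that count ranged from 1 to 7 over the alternatives. The call of mt-Co1 is lost with library size alone (adjusted p = 0.67), in a fit of the 12 LPS libraries (0.12), and without replicate 1 or 3 of dexamethasone plus LPS at 24 h (0.062 each), replicate 1 or 3 of LPS at 24 h (0.17 and 0.055), replicate 1 of dexamethasone plus LPS at 4 h (0.12) or replicate 1 or 3 of LPS at 4 h (0.078 and 0.097).

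Most genes of the cholesterol synthesis list rose with dexamethasone at 4 h, and 1 did at 24 h. Of 24 genes, 21 had a negative difference and none a positive one (median -1.59), against 22.9% and 21.6% of all protein-coding genes. At 4 h 21 were higher with dexamethasone and none lower (27.3% and 29% over all protein-coding genes). At 24 h 1 was higher and 9 lower (22.9% and 26%). Hmgcs1, an early enzyme of the pathway, had 54.5, 62.5 and 65.9 CPM with dexamethasone plus LPS at 24 h, against 72.7, 83.1 and 77.1 CPM with LPS. At 4 h, Hmgcs1 had 178, 231 and 159 CPM with dexamethasone plus LPS, against 69.2, 55.4 and 69.5 CPM with LPS. The groups do not overlap at either time, but only the 4 h rise was called; DESeq2 and limma-voom also call the 24 h fall. The difference of Hmgcs1 was -1.89 ± 0.20 (adjusted p = 4.2e-07). Further along, Mvd (-2.19 ± 0.14), Fdps (-2.09 ± 0.41), Lss (-1.92 ± 0.23) and Msmo1 (-2.12 ± 0.17) had similar differences, and Stard4, a sterol carrier, had -2.57 ± 0.18. Srebf2, the transcription factor that drives these genes, had a small one (-0.38 ± 0.11). Abcg1, a cholesterol exporter, was lowered at 4 h, to 5.63 ± 0.829 CPM against 36.8 ± 9.75 CPM with LPS, and averaged 78.4 ± 3.33 CPM against 101 ± 10.8 CPM with LPS at 24 h (2.35 ± 0.31).

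**Figure D3:**
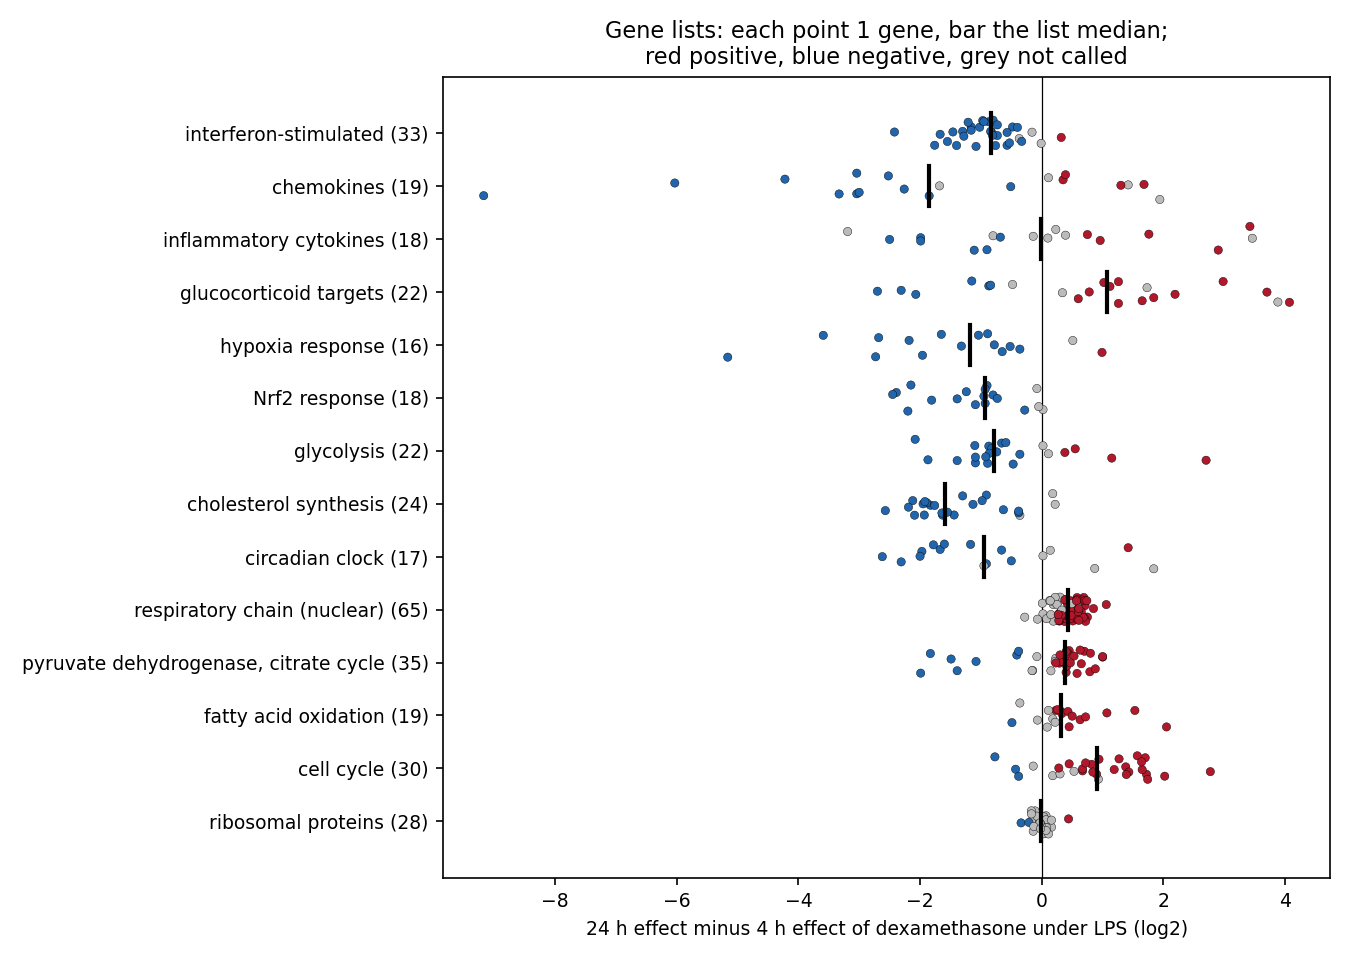
Difference of the dexamethasone effect under LPS, 24 h minus 4 h, on the log2 scale for each gene of 14 lists, with the number tested in brackets and a bar at the list's median. Red points are called positive, blue negative and grey not called; the interferon, hypoxia, Nrf2 and cholesterol lists lie mostly left of 0 and the nuclear respiratory chain right of it, and the leftmost point is Cxcl3, which had 2 counts with dexamethasone plus LPS at 24 h.

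Of 30 cell cycle genes, 22 had a positive and 3 a negative difference (21.6% and 22.9% over all protein-coding genes). The median difference was 0.91, with median effects of 1.13 at 24 h and 0.43 at 4 h. Ccnb2, a mitotic cyclin, had 12.7, 11.1 and 9.92 CPM with dexamethasone plus LPS at 24 h, against 0.918, 0.989 and 1.59 CPM with LPS. At 4 h, Ccnb2 had 56.8, 50.2 and 52.3 CPM with dexamethasone plus LPS, against 35.1, 37.4 and 40.9 CPM with LPS (2.77 ± 0.23). Mcm2 and Mcm7, which encode subunits of the replicative helicase, were raised at 24 h and lowered at 4 h. Mcm2 had 11.5, 11.6 and 11.4 CPM with dexamethasone plus LPS at 24 h, against 6.88, 7.03 and 7.99 CPM with LPS. At 4 h, Mcm2 had 12.6, 11.6 and 9.86 CPM with dexamethasone plus LPS, against 17.7, 17 and 17.3 CPM with LPS (1.27 ± 0.13), and Mcm7 had a difference of 2.02 ± 0.14. The 3 negative genes were Aurkb (-0.77 ± 0.19), Cdk2 (-0.43 ± 0.13) and Mki67 (-0.38 ± 0.13). Some members are low, as Ccnb2 at 24 h and Mcm2 at both times show. The list summed to 669 to 691 CPM with dexamethasone plus LPS at 24 h, against 437 to 471 CPM with LPS. At 4 h it summed to 1860 to 2110 CPM with dexamethasone plus LPS, against 1590 to 1660 CPM with LPS.

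The circadian clock list had 11 negative and 1 positive of 17 (median -0.95), against 22.9% and 21.6% of all protein-coding genes. Beside Per1, the negative ones included Per2 (-2.0 ± 0.35) and Cry2 (-1.78 ± 0.18), which encode repressors of the clock, and the output factors Dbp (-1.97 ± 0.63) and Tef (-2.62 ± 0.15), while Nfil3, a repressor that acts against Dbp, was positive (1.42 ± 0.12). No difference was detected for Arntl, the clock's activator BMAL1 (0.02 ± 0.16, adjusted p = 0.97). Of 15 genes of antigen presentation and co-stimulation, 3 were positive, 6 negative and 6 not called. The MHC class II genes H2-Aa (-1.61 ± 0.25), H2-Ab1 (-1.44 ± 0.25) and H2-Eb1 (-2.17 ± 0.25), the invariant chain Cd74 (-1.23 ± 0.25) and their activator Ciita (-2.25 ± 0.31) were lowered more at 24 h. The co-stimulatory genes Cd86, Cd80 and Cd40 (0.60 ± 0.11) had positive differences, and the inhibitory ligand Cd274 a negative one (-1.10 ± 0.10). Cd86 averaged 2.27 ± 0.433 CPM against 4.14 ± 0.617 CPM with LPS at 24 h and 23.7 ± 2.6 CPM against 144 ± 4.0 CPM with LPS at 4 h (1.74 ± 0.23), and Cd80 averaged 23.1 ± 1.65 CPM against 3.61 ± 0.796 CPM with LPS at 24 h. At 4 h, Cd80 averaged 21.2 ± 2.18 CPM against 12.1 ± 1.66 CPM with LPS (difference 1.87 ± 0.19). Ribosomal protein genes had nearly none: 1 of 28 was positive and 2 negative (median -0.01), though 17 are negative with library size alone.

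The genes with the most extreme differences, ranked among those with a mean of at least 5 CPM and at least 30 counts in each group, lie mostly outside the lists. Edn1, the vasoactive peptide endothelin 1, had 72.6, 56.9 and 61 CPM with dexamethasone plus LPS at 24 h, against 1.29, 0.885 and 1.04 CPM with LPS. At 4 h, Edn1 had 530, 587 and 586 CPM with dexamethasone plus LPS, against 562, 543 and 515 CPM with LPS. The 24 h groups are far apart and the 4 h groups overlap (5.80 ± 0.15, adjusted p = 7.7e-25). Lox, lysyl oxidase, which crosslinks collagen, showed the same pattern, at 193 ± 8.38 CPM against 12.8 ± 1.69 CPM with LPS at 24 h and 260 ± 19 CPM against 248 ± 15.5 CPM with LPS at 4 h (3.85 ± 0.11), as did the calcium pump Atp2a3 (3.94 ± 0.20). With library size alone small 4 h rises are called for Edn1 (0.29, adjusted p = 8.4e-05) and Lox (0.28, 0.001). Slc28a2, a nucleoside transporter, had 318, 312 and 316 CPM with dexamethasone plus LPS at 24 h, against 58, 54.6 and 53.3 CPM with LPS. At 4 h, Slc28a2 had 204, 261 and 231 CPM with dexamethasone plus LPS, against 963, 875 and 940 CPM with LPS. It rose at 24 h and fell at 4 h with no overlap at either time (4.51 ± 0.09, adjusted p = 3.5e-29); it has a near-identical neighbour, and reads that match both were not counted. Serpina3g, a serine protease inhibitor with close paralogs and hence an uncertain count, averaged 65.9 ± 4.9 CPM against 1.49 ± 0.679 CPM with LPS at 24 h. At 4 h, Serpina3g averaged 16.8 ± 2.89 CPM against 23.5 ± 5.53 CPM with LPS (difference 5.96 ± 0.28). Itgb3, the integrin beta 3 chain, averaged 37.5 ± 4.45 CPM against 1.3 ± 0.507 CPM with LPS at 24 h. At 4 h, Itgb3 averaged 5.32 ± 1.86 CPM against 8.48 ± 2.05 CPM with LPS (difference 5.53 ± 0.32). Chil3, the chitinase-like protein Ym1, rose at both times and more at 24 h (4.76 ± 0.33), and Il18rap, a chain of the interleukin 18 receptor, rose at 24 h and fell at 4 h (4.25 ± 0.29). Pik3ip1, an inhibitor of PI3 kinase, had a difference of 3.74 ± 0.26 and, with Rgs2, completed the 10 most positive. The 4 h falls of Serpina3g and Itgb3 are not called with library size alone (adjusted p = 0.19 and 0.069), without replicate 1 of LPS at 4 h (0.14 and 0.069) or without replicate 3 of dexamethasone plus LPS at 4 h (0.09 and 0.075).

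The 10 most negative held Nos2, Cxcl2 and Ccl2, described above, and mostly genes of surface receptors and adhesion. Antxr1, a collagen-binding receptor, had 5.55, 5.38 and 6.91 CPM with dexamethasone plus LPS at 24 h, against 90, 88.7 and 77 CPM with LPS. At 4 h, Antxr1 had 6.65, 7.45 and 7.87 CPM with dexamethasone plus LPS, against 6.43, 5.71 and 10.2 CPM with LPS (-3.83 ± 0.23). The 24 h groups are far apart and the 4 h groups overlap. Clec4n, the lectin receptor Dectin-2, averaged 3.52 ± 0.396 CPM against 49.3 ± 12.8 CPM with LPS at 24 h. At 4 h, Clec4n averaged 10.8 ± 1.99 CPM against 15 ± 1.66 CPM with LPS (difference -3.32 ± 0.28). Clmp, an adhesion protein, fell at 24 h and rose at 4 h, at 2.83 ± 0.757 CPM against 16.2 ± 3.92 CPM with LPS at 24 h and 14.1 ± 1.51 CPM against 3.43 ± 0.846 CPM with LPS at 4 h (-4.55 ± 0.28). Plxna2, a semaphorin receptor (-3.48 ± 0.20), Layn, a hyaluronan receptor (-3.46 ± 0.24), and Zfp503 (-3.33 ± 0.17) had that same pair of directions. So did Hspa1b, an inducible heat shock protein (-3.25 ± 0.34), whose near-identical copy makes its count uncertain.

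The difference under LPS was set against the same difference without LPS, that is, dexamethasone against untreated cells at 24 h minus 4 h, which shares no library with it. Of the 12224 genes, 5396 (44.1%) had a called gap between the 2 differences, 2770 (22.7%) with the difference under LPS above that without and 2626 (21.5%) below; with library size alone these were 1935 and 4166. Among the 10084 genes with at least 30 counts in each of the 8 groups, 5004 (49.6%) did, and the 2 differences had a Pearson correlation of -0.11 across these genes. Of those with a positive difference under LPS, 438 were positive, 765 negative and 1197 not called without LPS. Of those with a negative one, 480 were negative, 596 positive and 1503 not called.

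The median difference had opposite signs under LPS and without it for several lists, among them the hypoxia, respiratory chain and cell cycle lists, the glucocorticoid targets (1.07 and -0.55), the MAP kinase phosphatases and decay factors (0.37 and -0.62) and the acute phase genes (0.81 and -0.51). Gene by gene the acute phase list had no 1 direction. Its gap was above for 4 genes, below for 6 and not called for 7, with a median gap of -0.03. Of the glucocorticoid targets 12 were above and 4 below, and of the phosphatases and decay factors 6 and 1. The Nrf2 list had no 1 direction without LPS, with 5 genes positive, 4 negative and 9 not called. Below the difference without LPS were 12 of 16 hypoxia genes, with 2 above (median without LPS 0.27), 14 of 18 Nrf2 genes, with 2 above (median without LPS 0.05), and 10 of 17 clock genes, with 1 above. Hif1a had a difference of -1.96 ± 0.08 under LPS and 0.52 ± 0.09 without, a gap of -2.48 ± 0.12 (adjusted p = 4.7e-18), and Hmox1 had -2.39 ± 0.12 under LPS and 0.01 ± 0.11 without. Above were 51 of 65 nuclear respiratory chain genes, with none below, and 26 of 30 cell cycle genes, with 1 below; the cell cycle median was -1.60 without LPS. Ccnb2 had 2.77 ± 0.23 under LPS and -2.57 ± 0.17 without (gap 5.34 ± 0.28, adjusted p = 5.8e-16). Interferon-stimulated genes had nearly the same median with and without LPS, -0.84 and -0.82, and 9 of 33 were above and 1 below. Hmgcs1 had -1.89 ± 0.20 under LPS and -0.15 ± 0.21 without (gap -1.74 ± 0.29). Fkbp5 had 2.98 ± 0.10 under LPS and 1.16 ± 0.09 without (gap 1.82 ± 0.14), and Dusp1 2.19 ± 0.10 under LPS and -0.65 ± 0.10 without (gap 2.84 ± 0.14).

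**Figure D4:**
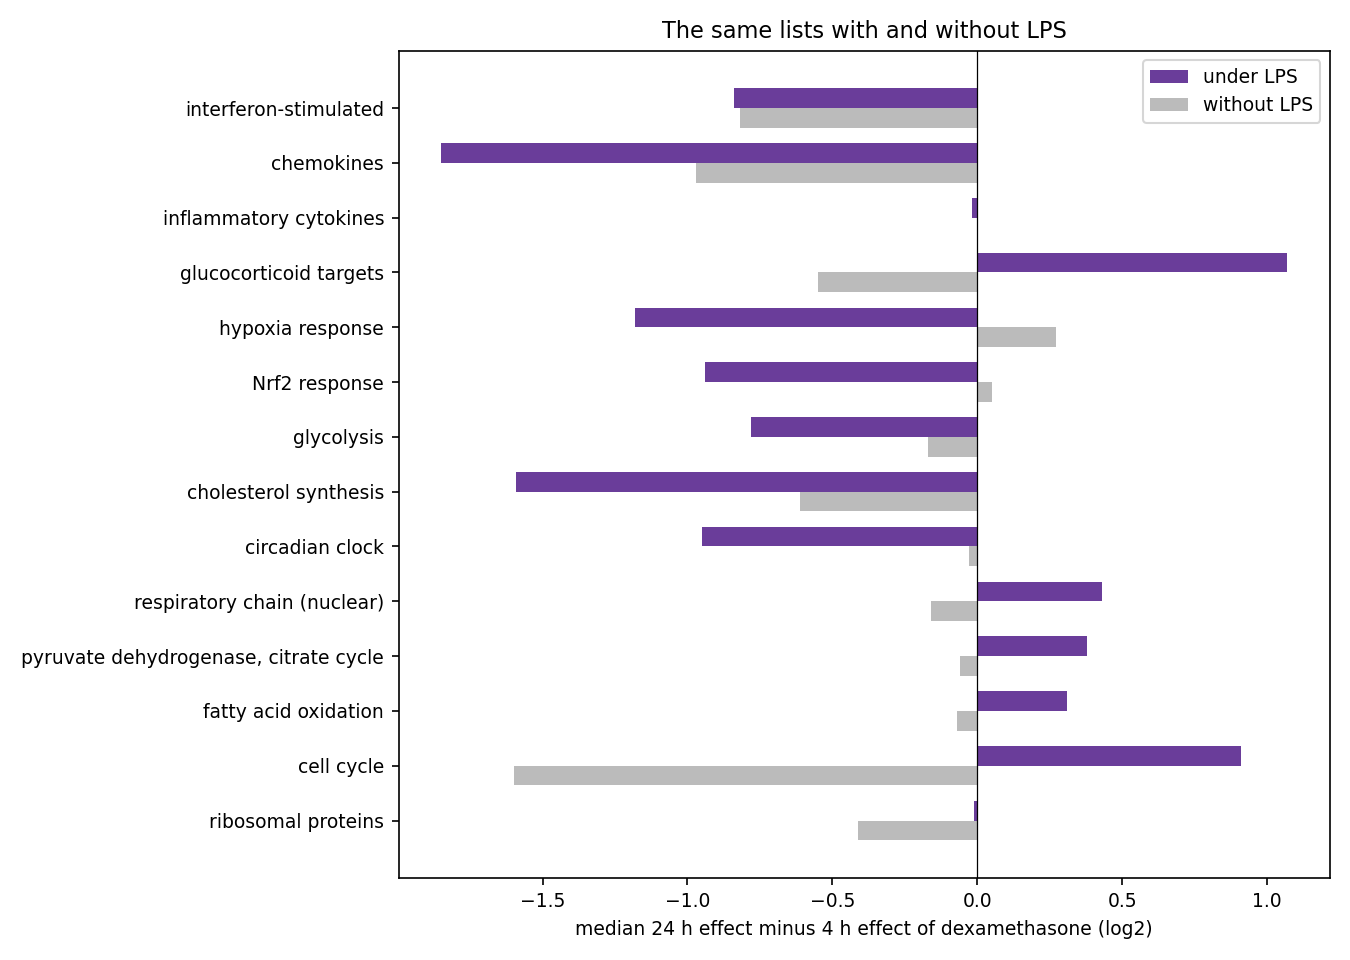
Median over the genes of each list of the dexamethasone effect at 24 h minus that at 4 h (log2), under LPS (purple, upper bar) and without LPS (grey, lower bar). The bars point the same way for interferon-stimulated genes (-0.84 and -0.82) and opposite ways for the cell cycle (0.91 and -1.60), the hypoxia response (-1.18 and 0.27) and the nuclear respiratory chain (0.43 and -0.16).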

How the data were processed

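RNA was extracted with RNeasy columns, per the labels. Per the submitters' processing notes reads were aligned with STAR, and per the file headers the authors counted read pairs on the exons of each gene with featureCounts 2.0.0, without strand and without multi-mapping reads, on GENCODE M29; the notes name the builds GRCm38 and mm10. The deposited table held whole read counts and, in another column, each gene's exon length, which was not used. 3276 of its 55357 genes had no entry in the annotation used here for gene types, GENCODE M21, with 0.204 to 0.449% of counts.

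The counts were fitted with edgeR 4.0.16 in R 4.3.3 (TMM scaling, a filter on low counts, robust quasi-likelihood, 1 mean for each of 8 groups over all 24 libraries, 16 residual degrees of freedom), with Benjamini-Hochberg adjustment over 14985 genes. DESeq2 1.42.0, limma 3.58.1 and other settings served as alternatives, and the fit was tested on simulated data. Standard errors of log2 values were recovered from each fold change and its F statistic.

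Members and gene lists were chosen with earlier results of these data known. Genes were named by rule: a panel of 30, the 10 most positive and 10 most negative differences with at least 30 counts in each of 4 groups, a mean of at least 5 CPM and a settled symbol, and up to 2 called genes each way per list. Further list members were named for their role after their values were seen, and some genes are not reported here. Upstream sequences are from RefSeq.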

Additional observations from a re-analysis of the deposited data

Results flagged for a closer look

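The first entry is the count itself: the dexamethasone effect under LPS differed between 24 h and 4 h for 5441 protein-coding genes by the test of the difference in edgeR.

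The others are genes of the panel or of the 10 most positive and 10 most negative differences whose effect was called in opposite directions at 24 h and 4 h, with a called difference. The difference was negative, lower with dexamethasone at 24 h and higher at 4 h, for Cxcl1 (-6.03), Clmp (-4.55), Cxcl2 (-4.22), Plxna2 (-3.48), Layn (-3.46), Zfp503 (-3.33) and Hspa1b (-3.25). It was positive, higher with dexamethasone at 24 h and lower at 4 h, for Mcm2 (1.27), Il6 (1.76), Il10 (3.42), Rgs2 (4.07), Il18rap (4.25), Slc28a2 (4.51), Itgb3 (5.53) and Serpina3g (5.96). Within 1 time, the smaller of the 2 effects was not called under every alternative for Il6, Itgb3 and Serpina3g (4 h) and for Il10 (24 h).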

How the results depend on the processing

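Every alternative to the fit gave between 5069 and 6363 called differences, against 5441, and none of the genes called in both reversed its sign. With library size alone in place of TMM, 4572 genes had a negative difference, and at 4 h 5596 were higher and 2193 lower with dexamethasone. The total was 5363 with DESeq2's size factors, 5529 with DESeq2, 5254 with limma-voom, 5179 with no filter on low counts, 5314 with a minimum of 5 CPM in 3 libraries, 5155 in a fit of the 12 LPS libraries alone and 5554 adjusted over protein-coding genes only. Leaving out 1 library at a time gave 5069 to 5297 called differences, 2434 to 2601 positive and 2595 to 2696 negative, of which 808 to 862 and 666 to 740 were at least 2-fold; it gave 5101 to 5331 genes for the gap to the difference without LPS and 402 to 425 called members of the lists, against 420. Deviations from the group mean had correlations of -0.07 to 0.07 between libraries with the same replicate number. With 3 libraries a group, such values cannot decide whether the numbers pair the libraries. At 24 h each library with dexamethasone matched the LPS library of its own number best, and at 4 h not all did. With a replicate block 5417 genes were called, and with a replicate block within each time 5344. Of 132 named genes, 1559 of 1584 values with a library left out stayed on their side of the threshold, 23 lost and 2 gained a call; under the other settings 1307 of 1318 stayed, 9 lost and 2 gained one. The causes were not tested. At low depth, as for Cxcl3, Arg1 or Adm, fitted values depend on the prior count.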

Other observations

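Genes of acute phase and granule proteins had 9 positive and 5 negative differences among 17 genes (median 0.81), with a median effect of 1.95 at 24 h and 0.35 at 4 h. Lcn2, an iron-sequestering protein of innate immunity, had 12300, 11400 and 10800 CPM with dexamethasone plus LPS at 24 h, against 1310, 1390 and 1360 CPM with LPS. At 4 h, Lcn2 had 1420, 1410 and 1670 CPM with dexamethasone plus LPS, against 398, 421 and 452 CPM with LPS (1.26 ± 0.19). It rose in every library at both times and by more at 24 h. Saa3, a serum amyloid A of macrophages, had 76700, 73200 and 72300 CPM with dexamethasone plus LPS at 24 h, against 59100, 60800 and 55300 CPM with LPS. At 4 h, Saa3 had 11700, 11200 and 12800 CPM with dexamethasone plus LPS, against 4170, 4560 and 4660 CPM with LPS (-1.07 ± 0.18). It rose at both times too, by less at 24 h (edgeR adjusted p of the 24 h rise = 0.041). Genes for the uptake of dying cells and for complement had 10 positive and 4 negative differences among 21 (median 0.47), against 7 and 6 with library size alone (median 0.28), with C1qa, a chain of C1q, at 0.56 ± 0.21 and Axl, a receptor related to Mertk, at 1.14 ± 0.11. Cd36, a scavenger receptor, went the other way, at 13 ± 3.32 CPM against 172 ± 15.1 CPM with LPS at 24 h and 503 ± 61.4 CPM against 900 ± 82.8 CPM with LPS at 4 h (-2.89 ± 0.22), as did Thbs1, the matrix protein thrombospondin 1 (-2.87 ± 0.23). Of 18 genes of cholesterol efflux and LXR signalling, 8 were negative, including Nr1h3, the receptor LXR alpha (-1.42 ± 0.11), and only Abcg1 was positive. With library size alone 12 were negative and 1 positive.

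Among 18 genes of alternative activation, 5 were positive and 5 negative. Mrc1, the mannose receptor, rose to 246% of its LPS level at 24 h and 250% at 4 h, and no difference was detected (-0.01 ± 0.29, adjusted p = 0.99). Arg1, arginase 1, had 0.0524, 0.0518 and 0.156 CPM with dexamethasone plus LPS at 24 h, against 18, 19.7 and 13.4 CPM with LPS, while it was at or below 0.837 CPM in every 4 h library. Immediate early genes had 6 positive and 5 negative differences among 18. Myc, a transcription factor of growth, was low at 24 h, at 2.23 ± 0.706 CPM against 0.352 ± 0.178 CPM with LPS, and had 15.2 ± 1.76 CPM against 34.9 ± 5.97 CPM with LPS at 4 h (3.82 ± 0.44). Egr1 was lowered at both times and more at 24 h (-2.29 ± 0.60), while Fos, a part of AP-1, stood at 202% of its LPS level at 24 h and at 62.5% of it at 4 h (1.70 ± 0.18). Genes of the unfolded protein response had 7 positive and 7 negative differences among 20, against 4 and 11 with library size alone. Those of the PERK branch and amino acid stress, Atf4 (-1.12 ± 0.08), Ddit3 (-0.95 ± 0.18), Trib3 (-1.18 ± 0.43) and Sesn2 (-1.21 ± 0.14), were negative, while Atf6 (1.05 ± 0.07), Xbp1 (0.49 ± 0.07) and the chaperone Hspa5 (0.41 ± 0.07) were positive. Of 24 lysosomal genes, 8 were positive and 6 negative (median -0.04), against 7 and 11 with library size alone (median -0.23).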
